A study of Mus musculus with 34 samples.

Results

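Across the liver genome, 1480 of the 24253 HNF4α peaks lay at a promoter and counted as having neither HDAC3 nor PROX1 on them. These HNF4α-alone promoter peaks were chosen by peak calls: a peak was taken when no single HDAC3 or PROX1 peak covered at least 50% of its length and when its centre lay within 1 kb of a transcription start site (TSS) of a protein-coding transcript on mm9. They made up 56.1% of the 2636 HNF4α peaks at promoters. Of the others, 947 (35.9%) were covered by both HDAC3 and PROX1 and are called triply bound, and 209 (7.93%) were covered by 1 of the factors.

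Binding was read out by ChIP-seq, the sequencing of DNA fragments that an antibody to the factor pulls down from fixed tissue. HNF4α was mapped in livers of *Hnf4α* fl/fl mice that had received AAV8 TBG *Egfp*, a virus whose TBG promoter drives the reporter in hepatocytes, so that the floxed gene was left intact. HDAC3 and PROX1 were mapped in control livers, so the lists compared come from different animals. All were male C57B/6 mice of 10 weeks, and the livers were collected at zeitgeber time (ZT) 10. The labels list 3 libraries each for HDAC3 and PROX1 and 2 for HNF4α, and the authors pooled them before calling peaks and filtered the HNF4α list against livers that lack HNF4α. The lists hold 21247 HDAC3, 27423 PROX1 and 24253 HNF4α peaks, with no value per library and no read count, so neither the spread between livers nor the depth can be given, and a site without a listed peak may still carry signal below the authors' limits.

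HNF4α is a nuclear receptor that binds DNA as a homodimer and maintains the expression program of the adult hepatocyte. HDAC3 is the histone deacetylase of the NCoR corepressor complex, and PROX1 is a homeodomain protein that binds nuclear receptors and represses their targets. Promoters of genes used in every cell type often lie in CpG islands, where the CpG dinucleotide is not depleted, whereas promoters of liver genes often do not.

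The reference sequences below show the kinds of site in this class. Each is printed on the strand of its gene, with matches to the HNF4α consensus with at most 2 mismatches in capitals, on either strand of the DNA. Peaks that reach into an untranslated exon are shown as 30 bases around their best match. The sites at liver genes are those of *Pklr* (liver pyruvate kinase), *Fads2* (a fatty acid desaturase), *Apoc2* (a cofactor of lipoprotein lipase) and *Proz* (a plasma cofactor of coagulation control), and none of the 4 windows was CpG-rich.
*Pklr* (chr3:88940311-88940457, forward strand): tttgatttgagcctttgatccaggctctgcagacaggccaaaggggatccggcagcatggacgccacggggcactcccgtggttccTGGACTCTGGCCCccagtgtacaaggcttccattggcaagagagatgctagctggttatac
*Fads2* (chr19:10176072-10176237, reverse strand): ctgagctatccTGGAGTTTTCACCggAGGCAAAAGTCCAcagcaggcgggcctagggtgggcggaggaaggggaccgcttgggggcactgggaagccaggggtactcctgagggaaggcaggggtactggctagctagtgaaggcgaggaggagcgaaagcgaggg
*Apoc2* (chr7:20262178-20262207, reverse strand): ttgttggccAGGACTTTGGCCTaggacaga
*Proz* (chr8:13060964-13060993, forward strand): cagggcccTGGACTTTGGCTGtttgcagac

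A further group is shown because its windows were CpG-rich, that is, of more than 50% G+C with an observed to expected CpG ratio over 0.6 in the 200 bp on the peak centre. It holds the sites of *Mrpl32* (a protein of the mitochondrial ribosome, with the proteasome gene *Psma2* starting nearby), *Etfa* (an electron carrier of fatty acid oxidation), *Prpf38b* (a splicing factor), *Kif11* (a motor of the mitotic spindle) and *Rpl15* (a protein of the cytosolic ribosome).
*Mrpl32* (chr13:14705320-14705487, reverse strand): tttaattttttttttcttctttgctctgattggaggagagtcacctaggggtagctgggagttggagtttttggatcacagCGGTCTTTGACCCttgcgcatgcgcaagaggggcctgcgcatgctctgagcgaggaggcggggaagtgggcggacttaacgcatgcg
*Etfa* (chr9:55359588-55359749, reverse strand): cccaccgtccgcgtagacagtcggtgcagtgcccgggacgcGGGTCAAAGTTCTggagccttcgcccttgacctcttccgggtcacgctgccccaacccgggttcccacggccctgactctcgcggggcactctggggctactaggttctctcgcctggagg
*Prpf38b* (chr3:108714744-108714902, reverse strand): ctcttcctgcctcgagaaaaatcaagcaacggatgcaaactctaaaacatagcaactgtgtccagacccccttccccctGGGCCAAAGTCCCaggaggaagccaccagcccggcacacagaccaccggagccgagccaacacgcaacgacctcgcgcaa
*Kif11* (chr19:37450653-37450792, forward strand): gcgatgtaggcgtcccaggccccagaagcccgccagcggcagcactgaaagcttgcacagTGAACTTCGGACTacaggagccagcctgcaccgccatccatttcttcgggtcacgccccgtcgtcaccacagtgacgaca
*Rpl15* (chr14:19103950-19103979, reverse strand): gttcgcgcaAGTCCAAAGTCCCtggccggc

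The sites of *Nfe2l2* (a transcription factor of the oxidative stress response) and *Atp5b* (a catalytic subunit of the mitochondrial ATP synthase) are shown because they held no match within these limits, and the site at *Vars2* (a mitochondrial aminoacyl-tRNA synthetase) because it held a match with 0 mismatches.
*Nfe2l2* (chr2:75543215-75543375, reverse strand): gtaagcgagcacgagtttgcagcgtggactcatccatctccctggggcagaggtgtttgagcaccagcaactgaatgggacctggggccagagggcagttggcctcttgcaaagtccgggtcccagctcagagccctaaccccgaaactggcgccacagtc
*Atp5b* (chr10:127519922-127520088, forward strand): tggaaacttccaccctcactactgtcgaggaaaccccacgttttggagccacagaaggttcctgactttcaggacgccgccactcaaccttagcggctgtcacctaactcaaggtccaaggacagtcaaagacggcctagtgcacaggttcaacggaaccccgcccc
*Vars2* (chr17:35804846-35805013, reverse strand): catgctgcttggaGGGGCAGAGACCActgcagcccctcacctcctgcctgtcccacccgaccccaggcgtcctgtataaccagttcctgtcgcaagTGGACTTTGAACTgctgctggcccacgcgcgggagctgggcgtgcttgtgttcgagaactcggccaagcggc

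For comparison, 2 of the triply bound promoter peaks with the highest HNF4α scores are those of *Dak* (a kinase of triose metabolism) and *Mgst1* (a microsomal glutathione transferase).
*Dak* (chr19:10678813-10678954, reverse strand): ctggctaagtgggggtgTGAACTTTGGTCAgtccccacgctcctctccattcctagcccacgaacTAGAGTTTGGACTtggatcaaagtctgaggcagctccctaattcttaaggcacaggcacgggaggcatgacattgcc
*Mgst1* (chr6:138088567-138088732, forward strand): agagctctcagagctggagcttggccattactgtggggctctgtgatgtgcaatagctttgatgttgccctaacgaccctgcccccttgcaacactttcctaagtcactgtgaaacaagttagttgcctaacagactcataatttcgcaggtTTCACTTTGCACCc

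The HNF4α calls of this class were weak compared with those shared with the corepressors. The score, taken here as the authors' HOMER peak score since the list does not state its scale, ran from 20.3 to 119.7 with a median of 34.4 (quartiles 26.9 and 45.7). Triply bound promoter peaks had a median of 51.8 (37.7 and 74.0), and HNF4α-alone peaks away from promoters, called distal here, had one of 33.0. The share of HNF4α promoter peaks with neither factor fell from 75.1% (95% Wilson interval 71.7 to 78.1) at scores under 30 to 19.2% (14.7 to 24.8) at scores of 80 or more. These scores come from the calls that chose the peaks and are given as a description. Wilson intervals throughout cover only the counting error, and peaks of 1 neighbourhood are not independent of each other.

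**Figure D1:**
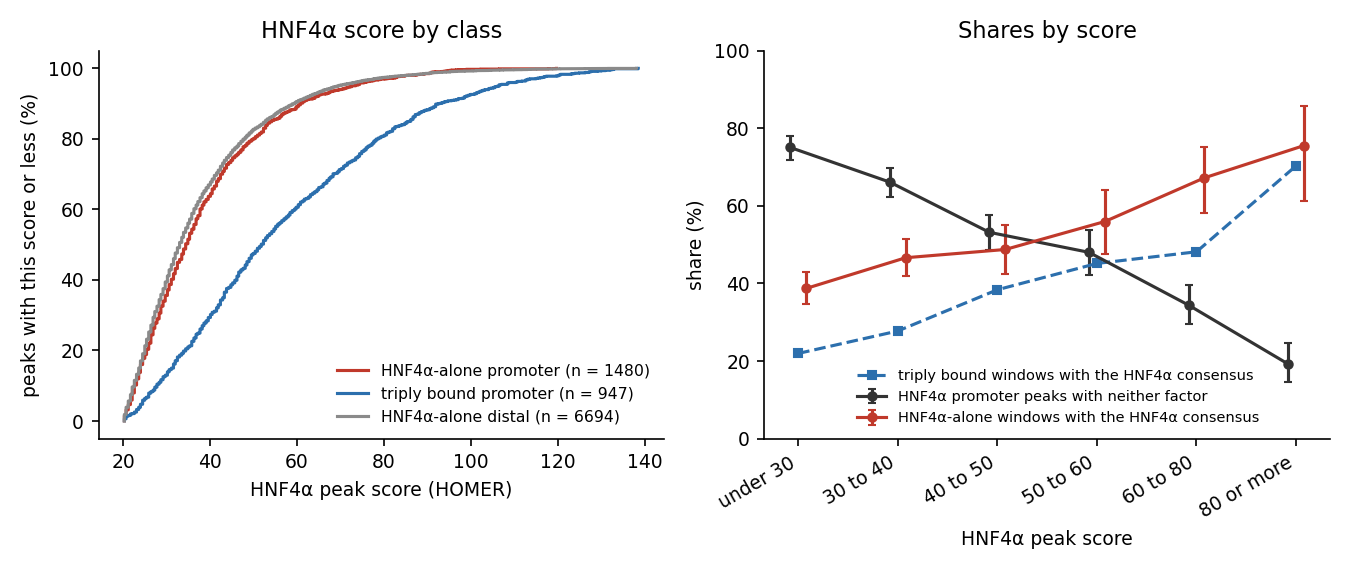
Left, cumulative share of peaks (%) against HNF4α score for HNF4α-alone promoter, triply bound promoter and HNF4α-alone distal peaks, in which the HNF4α-alone curves rise earliest. Right, by score class, the share of HNF4α promoter peaks with neither factor, which falls from 75.1% to 19.2%, and the shares of HNF4α-alone (38.7% to 75.6%) and triply bound (22.0% to 70.3%) windows with the HNF4α consensus; bars are 95% Wilson intervals, and the triply bound points carry none.

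The 10 peaks of highest score are described singly, and no pathway test was run on their genes. The highest, of score 119.7, lay at chr8:73321750-73321916, centred at -988 bp from the start of *Mast3*, which encodes a protein kinase, and its window was CpG-rich. *Gm12824* followed with 117.8, at chr4:114078338-114078505. The peak of score 106.5 at chr11:102889469-102889629 was centred 69 bp downstream of the start of *Dcakd* in an untranslated exon, and the N-myristoyltransferase gene *Nmt1* also starts within 1 kb. *Proz* (102.2, at +17 bp), *Nfe2l2* (98.9, at -597 bp) and *Pklr* (97.1, at -110 bp) came next. *2610034B18Rik* (96.6, 18.7% covered by HDAC3 and by PROX1), *Kif11* (95.6), *Tmem56* (95.2) and *Ccnyl1* (94.7, a value that another member shared) completed the group. Windows of 4 of the 10, those of *Mast3*, *Dcakd*, *Kif11* and *Tmem56*, were CpG-rich.

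The absence of the corepressors was mostly clear of the 50% limit. Of the members, 1395 (94.3%) touched no HDAC3 or PROX1 peak, and 85 (5.74%) were covered by less than 50%. Just inside the limit lay peaks at *Cycs* (cytochrome c, 49.7% covered), *Fabp2* (a fatty acid binding protein of the intestine, 49.7%) and *Tor1aip1* (48.8%). Just outside it lay peaks at *Dlc1* (50%), *Slc39a4* (50.3%) and *Slc25a22* (50.3%), which do not count as members. An HDAC3 or PROX1 peak was centred within 1 kb of 277 members (18.7%) and within 10 kb of 775 (52.4%), whereas 297 (20.1%) had none within 50 kb. The median distance was 8.38 kb. A gene named below can thus have such a peak close by without overlap. The distance was 275 bp for the *Nr0b2* member and 415 bp for the *Etfa* member, against 577020 bp for *Mrpl32* and 57924 bp for *Vars2*. A triply bound promoter peak lay at the same gene for 108 members (7.30%).

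HNF4α-alone peaks were spread on both sides of the TSS. Their median position was -11 bp (quartiles -244 and 342 bp), and 51.9% lay upstream. Triply bound promoter peaks had a median of -90 bp, and 66.3% lay upstream. The 250 bp downstream of the TSS held 19.9% of the HNF4α-alone peaks and 8.87% of the triply bound ones. The 100 bp just upstream held 12.4% and 18.5%. By their centres, 39.5% of the members lay in introns, 37.7% outside protein-coding transcripts, 16.8% in untranslated and 6.01% in coding exon sequence. Starts of 2 or more protein-coding genes lay within 1 kb of 154 members (10.4%), against 39 triply bound peaks (4.12%). For 146 members (9.86%) these genes included both strands. Whether the genes diverge, or the peak lies between their starts, was not measured. Location chose these peaks, so the positions carry no test.

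**Figure D2:**
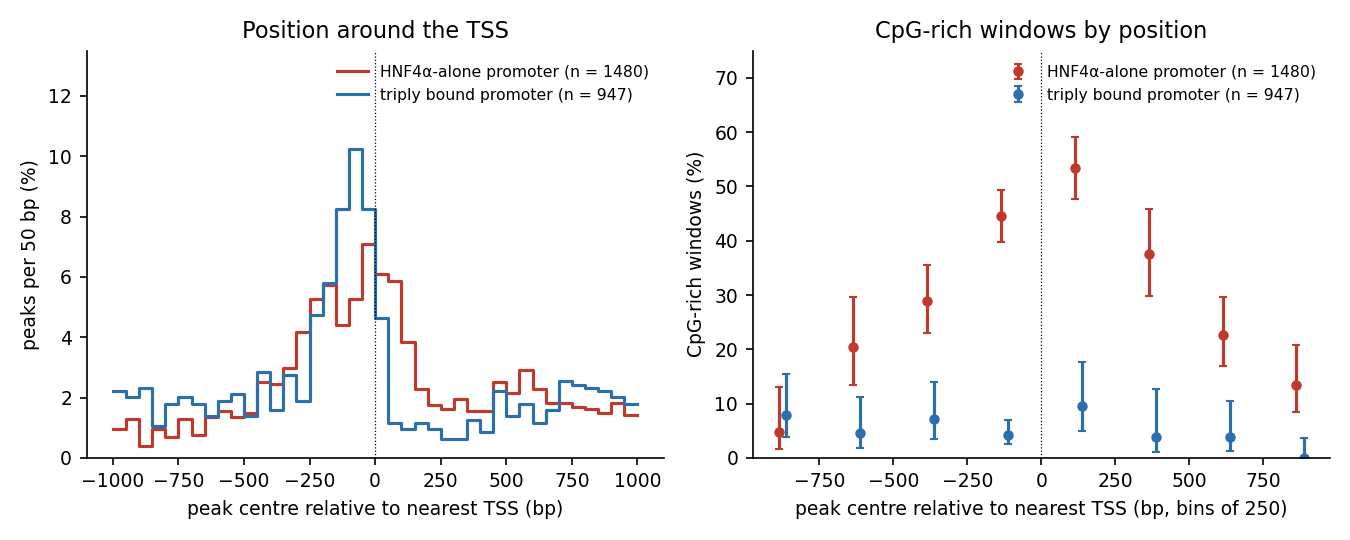
Left, share of peaks per 50 bp (%) by the position of the peak centre relative to the nearest TSS, for HNF4α-alone and triply bound promoter peaks; the triply bound peaks stand highest just upstream of the TSS, and HNF4α-alone peaks extend further downstream. Right, share of CpG-rich windows (%) in bins of 250 bp with 95% Wilson intervals, which reaches 53.4% of the HNF4α-alone windows just downstream of the TSS against 9.52% of the triply bound ones.

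The base composition of these promoters differed from that of triply bound ones. Of the 1480 HNF4α-alone windows, 524 were CpG-rich, or 35.4% (95% interval 33.0 to 37.9). Of the 947 triply bound windows, 46 were, or 4.86% (3.66 to 6.42). The difference of 30.5 percentage points (95% interval 27.8 to 33.3) passed a two-sided Pearson's chi-square test (adjusted p = 4.4e-66, Benjamini-Hochberg over 38 tests). Peaks are not replicates, and the difference was positive on each of 20 chromosomes, from 4.29 to 48.8 points. Of windows centred on the starts of all 22380 protein-coding genes, 48.3% were CpG-rich, whereas the members' windows were centred on peaks up to 1 kb from a start. The median G+C was 56.5% against 48.5%, and the median observed to expected CpG ratio 0.539 against 0.258. Of the windows on 584 HDAC3-PROX1 promoter peaks that touch no HNF4α peak, 6.34% were CpG-rich. Of 230 HDAC3-only promoter peaks, which were not selected by HNF4α overlap, 18.7% had CpG-rich windows.

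The difference was seen over most positions. In bins of 250 bp, the HNF4α-alone share was above the triply bound share from -750 to 1000 bp, with 44.5% against 4.25% just upstream and 53.4% against 9.52% just downstream of the TSS. From -1000 to -750 bp it was 4.76% of 63 peaks against 7.87% of 89. It was also seen in each score class. The share was between 25.9% and 37.3% in each score class of the members, whereas it was between 3.66% and 6.50% in each score class of the triply bound peaks.

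**Figure D3:**
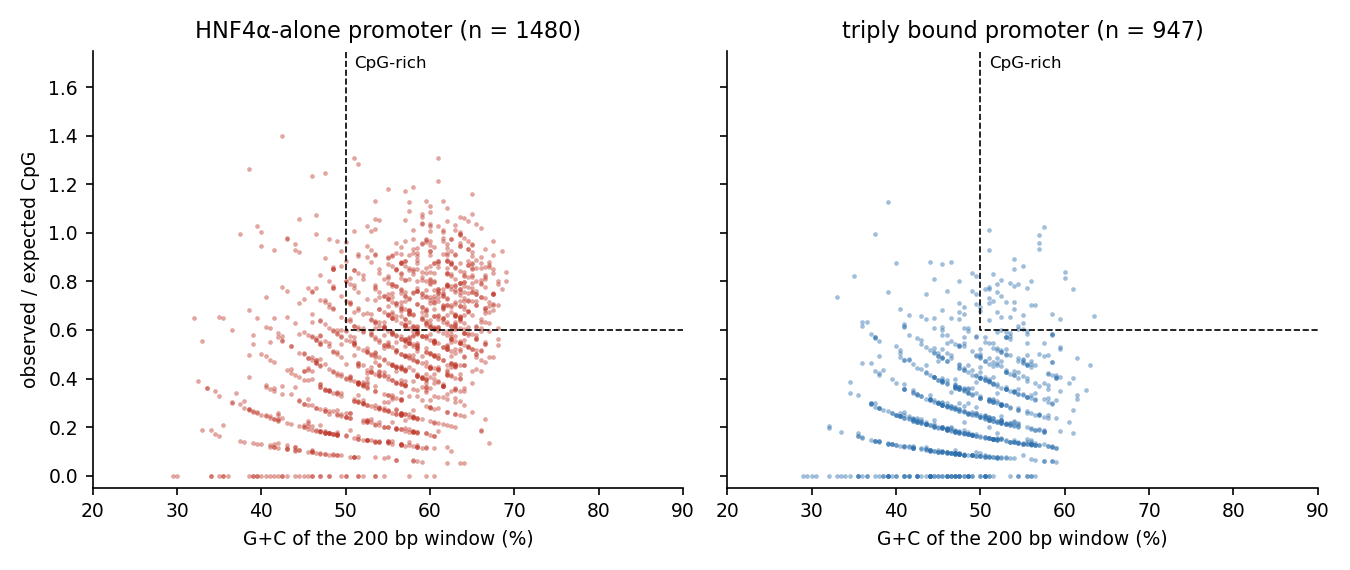
Observed to expected CpG ratio against G+C (%) of the 200 bp window, 1 point per peak, for HNF4α-alone (left) and triply bound (right) promoter peaks. Dashed lines bound the CpG-rich area, which holds 35.4% of the HNF4α-alone and 4.86% of the triply bound points.

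A match to the HNF4α consensus, a sequence of 13 letters read with at most 2 mismatches on both strands, was present in 703 of the HNF4α-alone windows, or 47.5% (95% interval 44.97 to 50.05). It was present in 9.05% of windows 2 kb to either side and in 6.36% of windows on all protein-coding gene starts. Matches with 0 mismatches were rare, with 11 members (0.743%), 169 had 1 mismatch and 523 had 2. The *Vars2* site printed above is among the 11. The triply bound share was 43.5%, and the difference of 3.99 points (95% interval -0.0609 to 8.05) did not pass the threshold (adjusted p = 0.071, Pearson's chi-square test). As a description, the HNF4α-alone share was above the triply bound share in each score class. It was 38.7% against 22.0% at scores under 30, 48.8% against 38.4% from 40 to 50 and 75.6% against 70.3% at 80 or more. Whether the difference passed the threshold depended on the score range. Among HNF4α peaks at or below the median score of the list, 43.2% of the HNF4α-alone and 26.6% of the triply bound promoter windows held the consensus, a difference of 16.6 points (10.8 to 22.3, adjusted p = 6.1e-07, chi-square test). Above the median score the shares were 57.0% and 51.8%, 5.21 points apart (-0.745 to 11.2, adjusted p = 0.158, chi-square test), and the change between the score ranges was itself not tested. Passing the threshold depended on the distance as well. Within 2 kb of a TSS the difference was 6.48 points (adjusted p = 0.00022, chi-square test), whereas within 250 bp, a setting chosen after seeing the data, the shares were 43.2% and 46.5% (adjusted p = 0.335, chi-square test).

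Within the class, the consensus went with the score. Its share rose from 38.7% of the members under 30 to 46.6%, 48.8%, 56.0%, 67.2% and, at 80 or more, 75.6%. The members without a match, 777 peaks, had a median score of 32.5, against 36.8 for those with one, and more of them were CpG-rich, with 40.4% against 29.9%. In the members with a match, its centre lay a median of 27.5 bp from the peak centre, further than the 18.5 bp of HNF4α-alone distal peaks. The median of triply bound promoter peaks, 24.5 bp, was close to that of the members.

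The other motifs of promoters and of hepatocyte enhancers differed between the promoter classes in both directions. Elements known from CpG island promoters were found more often in HNF4α-alone than in triply bound windows. The GC box GGGCGG, bound by SP factors, was present in 24.0% against 7.29%, the ETS element CCGGAAG in 6.08% against 1.16% and the NRF1 element GCGCNTGCG in 2.64% against 0.634% (adjusted p = 2.6e-25, 1.2e-08 and 0.00063, Pearson's chi-square test). All gene starts held these in 39.95%, 9.35% and 6.78% of windows. The *Mrpl32* site holds a GC box and an NRF1 element, and the *Etfa* site an ETS element.

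Elements of liver regulators were found less often. AGGTCA, the element that many nuclear receptors read, was present in 21.0% of HNF4α-alone and 35.3% of triply bound windows, a difference of -14.3 points (95% interval -17.9 to -10.6, adjusted p = 4.2e-14, Pearson's chi-square test). TAGGTCA, which ROR and Rev-erb receptors read and which contains AGGTCA, was present in 2.50% against 5.28% (adjusted p = 0.00059, chi-square test). TTGCGCAA with at most 1 mismatch, the C/EBP element, was present in 6.96% against 13.2% (adjusted p = 9.5e-07, chi-square test). The forkhead element TGTTTAC was present in 2.64% against 6.34% and GTTAATNAT, part of the HNF1 element, in 0.541% against 1.80% (adjusted p = 1.7e-05 and 0.0047, chi-square test). The core CAAAGTTCA, which lies inside the HNF4α consensus, was present in 2.30% against 4.44% (adjusted p = 0.0050), whereas the core CAAAGTCCA was present in 4.66% against 4.01% (adjusted p = 0.467, chi-square test). The TATA box TATAAA (5.54% against 9.40%, adjusted p = 0.00055) and CCAAT (21.1% against 28.8%, adjusted p = 3.0e-05, chi-square test) were also rarer at HNF4α-alone promoters. All gene starts held AGGTCA in 8.86% of windows, TAGGTCA in 1.33%, TTGCGCAA with at most 1 mismatch in 4.10%, TGTTTAC in 1.60%, GTTAATNAT in 0.402%, CAAAGTTCA in 0.273%, CAAAGTCCA in 0.246%, TATAAA in 8.18% and CCAAT in 27.4%.

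In all, 12 of the 19 features passed the threshold in this comparison, 4 of them higher and 8 lower at HNF4α-alone promoters. The others were the HNF4α consensus, the core CAAAGTCCA, the Rev-erbα DR2 consensus of 16 letters with at most 3 mismatches (0.608% against 1.16%), the YY1 element AAGATGGC (1.69% against 0.739%, adjusted p = 0.062, chi-square test), the cAMP element TGACGTCA (0.743% against 0.317%), the E-box CACGTG (7.03% against 5.28%) and the ZNF143 element ACTACAA (1.89% against 2.53%). All gene starts held the DR2 consensus in 0.594% of windows, AAGATGGC in 3.03%, TGACGTCA in 1.92%, CACGTG in 5.54% and ACTACAA in 2.28%. All elements were searched on both strands, and a match describes the sequence and not a bound factor.

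**Figure D4:**
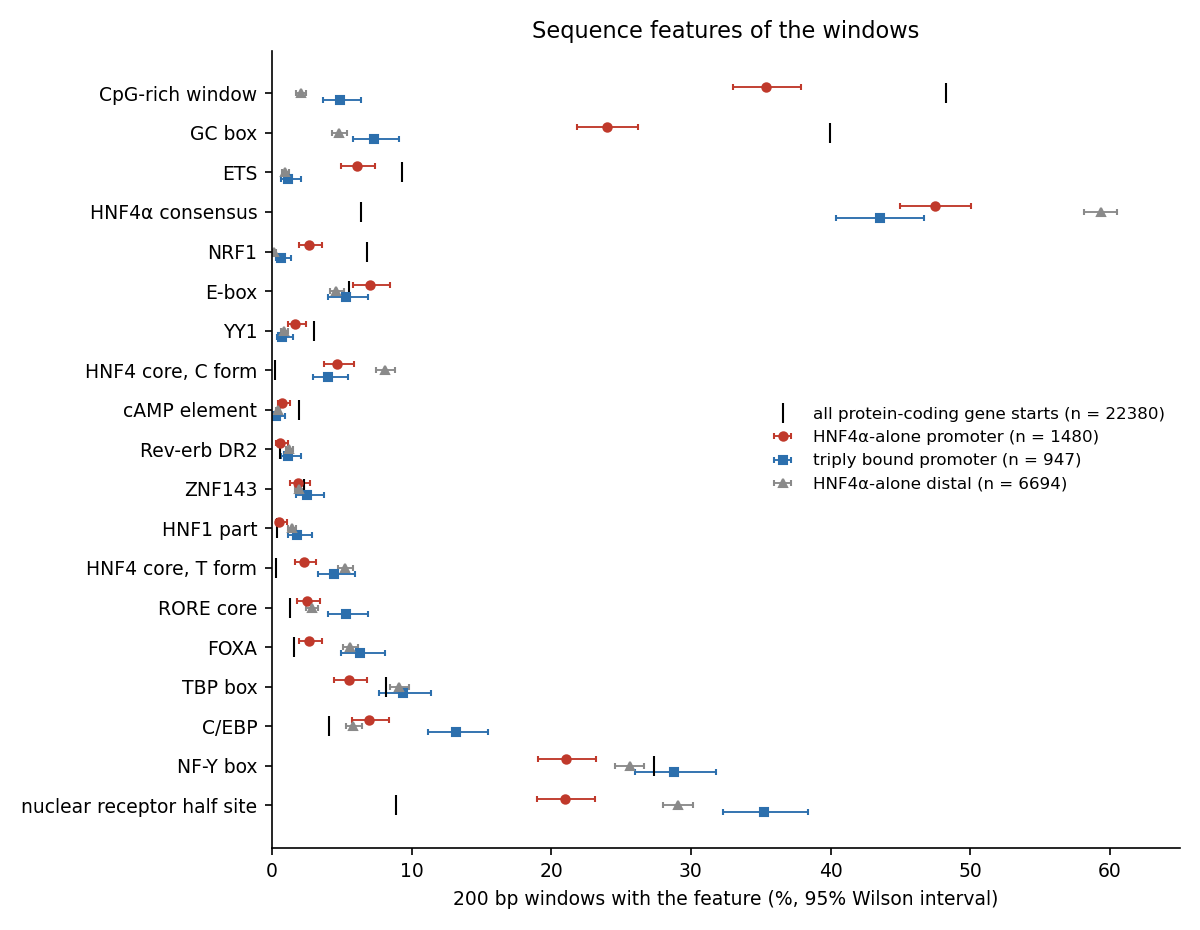
Share of 200 bp windows (%) with each sequence feature, with 95% Wilson intervals, for HNF4α-alone promoter, triply bound promoter and HNF4α-alone distal peaks; black bars mark windows on all protein-coding gene starts. The features are ordered by the difference between the promoter classes, from the CpG-rich window (35.4% against 4.86%) to the nuclear receptor element AGGTCA (21.0% against 35.3%).

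Some of these differences, and not others, passed the threshold among windows of low CpG content. In windows that were not CpG-rich, a restriction chosen after seeing the data, 956 HNF4α-alone and 901 triply bound peaks remained. AGGTCA was then present in 23.4% against 35.5%, the C/EBP element in 6.80% against 12.8%, the forkhead element in 3.03% against 6.22% and the GC box in 17.8% against 6.44%, all past the threshold. The ETS element (2.30% against 1.11%, adjusted p = 0.084) and the NRF1 element (1.26% against 0.333%, adjusted p = 0.052, chi-square test) no longer passed it. Nor did the TATA box (7.01% against 9.88%, adjusted p = 0.052, chi-square test) and GTTAATNAT (0.732% against 1.78%, adjusted p = 0.076, chi-square test). The HNF4α consensus did, with 51.6% against 44.2% (adjusted p = 0.0042, chi-square test).

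Within the class, the CpG-rich members stood beside the CpG-poor ones as follows, given as a description. They lay closer to the TSS, with 35.9% against 18.1% within 100 bp. More of them had gene starts of both strands within 1 kb, with 16.2% against 6.38%. They held the HNF4α consensus in 40.1% against 51.6%, the GC box in 35.3% against 17.8% and the ETS element in 12.98% against 2.30%. The median score was 34.4 in both groups.

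Against the 6694 HNF4α-alone distal peaks, chosen by the same overlap limit, the promoter peaks held the HNF4α consensus less often, with 47.5% against 59.3%. The difference was -11.8 points (95% interval -14.6 to -9.03, adjusted p = 4.4e-16, Pearson's chi-square test, lower on each of 20 chromosomes). AGGTCA, with a difference of -8.04 points, and the forkhead element, with -2.97 points, were also found less often, both past the threshold. The C/EBP element was present in 6.96% against 5.84% (adjusted p = 0.121, chi-square test). CpG-rich windows made up 2.06% of the distal peaks, 33.3 points below the promoter peaks (95% interval 30.9 to 35.8). The GC box was present in 4.83% of the distal windows, the ETS element in 0.956% and the NRF1 element in 0.179%. Of the 19 features, 14 passed the threshold, 6 of them higher and 8 lower at the promoters.

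The members lay within 1 kb of a TSS of 1527 genes, 6.82% of the 22380 protein-coding genes, which is the background for the lists below. Triply bound promoter peaks lay at 907 genes, or 4.05%. The groups shared 106 genes, 6.94% of the HNF4α-alone genes and 11.7% of the triply bound genes. Lists of housekeeping and of hepatocyte genes were written from general knowledge. Of 602 genes in 12 housekeeping lists, 69 had an HNF4α-alone promoter peak (11.5%, 95% interval 9.16 to 14.3) and 18 a triply bound one (2.99%, 1.90 to 4.68). Of 451 genes in 10 hepatocyte lists, 74 had an HNF4α-alone (16.4%, 13.3 to 20.1) and 161 a triply bound promoter peak (35.7%, 31.4 to 40.2). The HNF4α-alone share was above its background in both kinds of list, and the interval of the triply bound share in the housekeeping lists held its background of 4.05%. These counts carry no test, and genes of 1 cluster can share a peak.

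**Figure D5:**
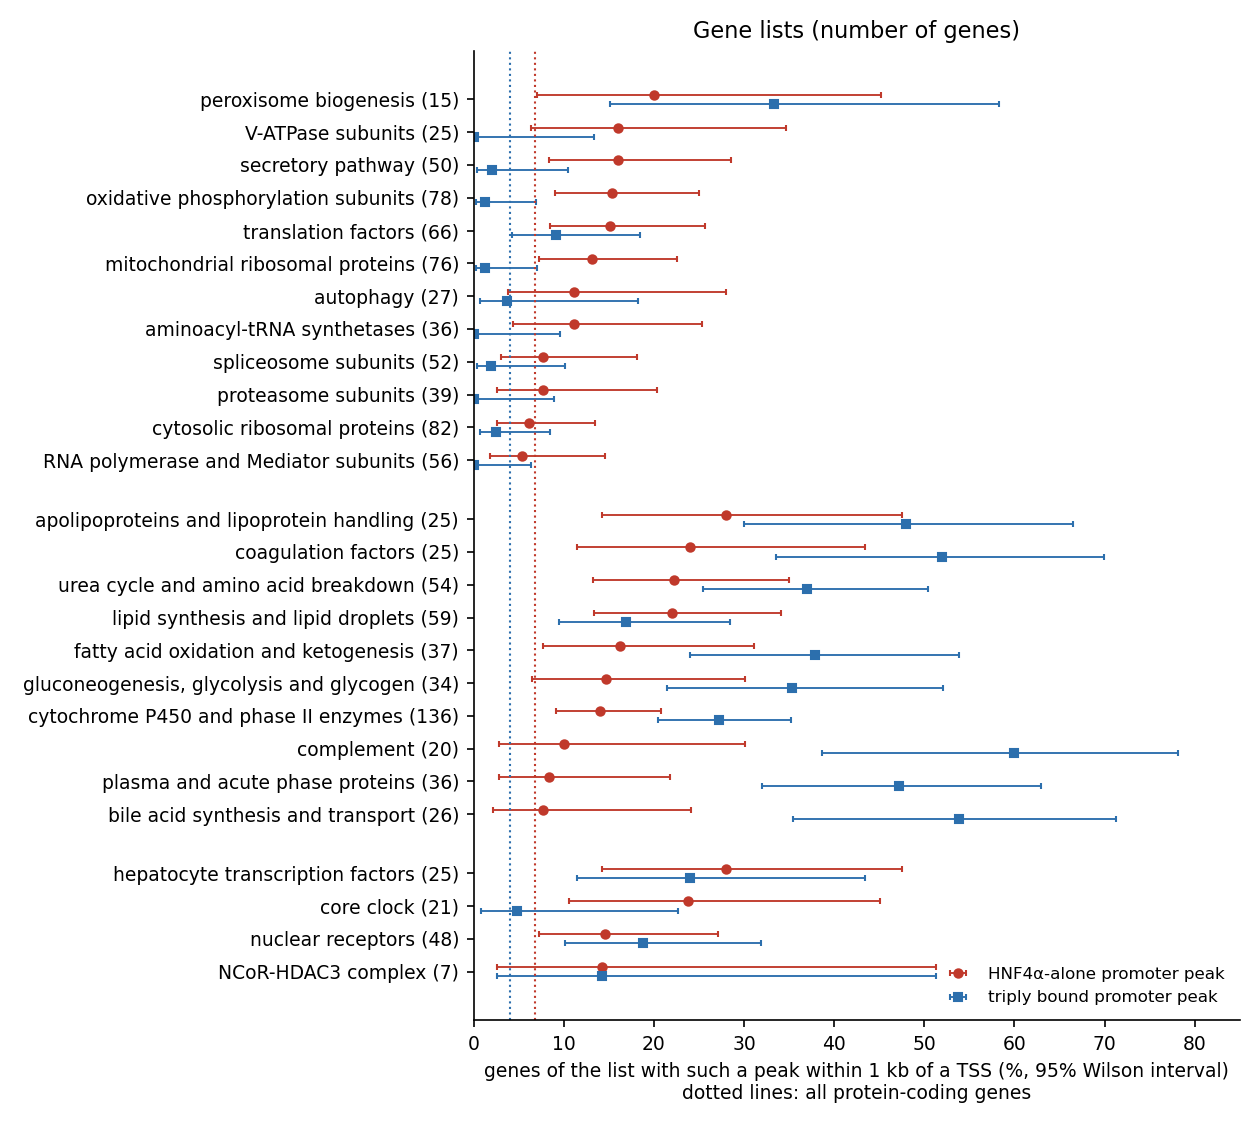
Share of the genes of each list (%) with an HNF4α-alone (circles) or a triply bound (squares) promoter peak, with 95% Wilson intervals; dotted lines mark 6.82% and 4.05% of all protein-coding genes, and list sizes stand in brackets. The upper block holds housekeeping, the middle block hepatocyte and the lower block regulator lists.

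Among the mitochondrial lists, 12 of 78 oxidative phosphorylation subunits (15.4%) had an HNF4α-alone promoter peak, against 1 (1.28%) with a triply bound one. The highest scores were at *Atp5b* (72.1, at -324 bp) and, in complex I, *Ndufa2* (62.2, at +121 bp), *Ndufs6* (51.4, at -33 bp, 32.3% covered) and *Ndufs8* (45.7, at +306 bp). Of 76 proteins of the mitochondrial ribosome, 10 (13.2%) had one, led by *Mrpl32* (64.6), *Mrpl34* (60.3), *Mrpl12* (42.9) and *Mrps21* (40.5), against 1 that was triply bound. Of 36 aminoacyl-tRNA synthetases, 4 (11.1%, Wilson interval 4.41 to 25.3) had one, and this interval held the background of 6.82%. All 4, *Vars2* (72.6), *Aars2* (57.5), *Rars2* (37.2) and *Yars2* (26.4), encode mitochondrial enzymes. How many of the 36 encode mitochondrial enzymes was not counted. None of the 36 had a triply bound peak. The *Mrps21* and *Rars2* peaks each lay nearer to the start of another gene.

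In the cytosolic translation lists, 10 of 66 translation factors (15.2%) had an HNF4α-alone promoter peak, and 6 had a triply bound one. The highest HNF4α-alone scores were at the scaffold *Eif4g1* (84.8), *Eif4b* (53.7), *Eif3f* (44.3) and the elongation factor *Eef1g* (33.0), and *Eif4g1* had peaks of both kinds. Of 82 cytosolic ribosomal proteins, 5 (6.10%) had an HNF4α-alone promoter peak, close to the background, at *Rpl15* (54.2), *Rps27l* (40.1) and *Rps10* (27.3) among others. The secretory pathway stood at 8 of 50 (16%), with the COPII coat genes *Sec24a* (70.7), *Sec23a* (51.8) and *Sec24c* (43.3) and the endoplasmic reticulum chaperone *Dnajb11* (43.8) leading. The *Dnajb11* peak lay nearer to the start of another gene. The proton pump of lysosomes stood at 4 of 25 (16%), with *Atp6v1b1* (68.8) and *Atp6v1e1* (42.9) first. Its Wilson interval, 6.40 to 34.7, held the background. Shares near the 6.82% of all protein-coding genes were seen for the spliceosome (4 of 52, 7.69%, led by *Prpf38b*, 37.7) and the proteasome (3 of 39, 7.69%). The proteasome list was led by *Psma2* (64.6), through the peak it shares with *Mrpl32*. RNA polymerase and Mediator stood at 3 of 56 (5.36%), led by *Med27* (51.8). Autophagy genes stood at 3 of 27 (*Wipi2*, 40.1), with a Wilson interval of 3.85 to 28.1 that held the background as well. Peroxisome biogenesis was the housekeeping list with more triply bound than HNF4α-alone genes, 5 against 3 of 15, of which *Pex7* (46.6) had the highest HNF4α-alone score.

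Hepatocyte lists of secreted proteins held more genes with a triply bound than with an HNF4α-alone promoter peak. Of 36 plasma and acute phase proteins, 3 had an HNF4α-alone promoter peak, against 17 with a triply bound one. The 3 were *Crp* (62.2, at -456 bp, 24.8% covered), *Alb* (59.8, at -190 bp) and *Itih4* (40.5, 45.7% covered). Of 20 complement genes, 2 had an HNF4α-alone promoter peak, *C1ra* (33.5) and *Mbl2* (29.2), against 12 with a triply bound one. The *C1ra* peak lay nearer to the start of another gene. Coagulation factors stood at 6 of 25 (24.0%) against 13, and the cluster of *Proz* (102.2), *F7* (65) and *F10* (63.6) on chromosome 8 held HNF4α-alone peaks at +17, -11 and -32 bp from the respective starts. Antithrombin, *Serpinc1*, had one of 75.4 at -28 bp, of which 19.05% was covered. Apolipoproteins and lipoprotein handling stood at 7 of 25 (28.0%) against 12, with *Apoc2* (87.2, at +16 bp), *Apoc3* (77.7, at -77 bp), *Apoc1* (76.8, at -838 bp) and *Apoa4* (59.8, at -5 bp). *Apoc2* and *Apoc3* also had a triply bound promoter peak. The nearest HDAC3 or PROX1 peak was centred 337 bp from the *Proz* member, 10481 bp from that of *F7* and 995 bp from that of *F10*. For *Apoc2*, *Apoc3*, *Apoc1* and *Apoa4* the distances were 828, 438, 1029 and 1666 bp.

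In metabolism, lipid synthesis and lipid droplets was the hepatocyte list with more HNF4α-alone than triply bound genes, 13 (22.0%) against 10 (16.9%) of 59. The highest scores were at *Fads2* (81.0, at -161 bp), the droplet coat genes *Plin4* (72.6, at +951 bp) and *Plin5* (52.3, at +895 bp), and *Dhcr7* of cholesterol synthesis (70.2, at -454 bp). The *Dhcr7* peak lay nearer to the start of another gene. Urea cycle and amino acid breakdown stood at 12 of 54 (22.2%) against 20. That list was led by *Haao* of tryptophan breakdown (93.8, 18.3% covered), the mitochondrial aminotransferase *Agxt2* (87.6), *Cth* of cysteine synthesis (74.4) and *Hpd* of tyrosine breakdown (71.1). Fatty acid oxidation and ketogenesis stood at 6 of 37 (16.2%) against 14, led by *Etfa* (55.6), the enzymes *Hadh* (43.3) and *Eci1* (40.5), and *Etfb* (39.6), the partner subunit of *Etfa*. Gluconeogenesis, glycolysis and glycogen stood at 5 of 34 (14.7%) against 12, led by the glycolytic enzymes *Pklr* (97.1), *Pgk1* (54.2) and *Eno1* (46.2) and the glucokinase regulator *Gckr* (34.9). Cytochrome P450 and phase II enzymes stood at 19 of 136 (14.0%) against 37, led by the conjugating enzymes *Ugt2b1* (90.9, 44.8% covered), *Sult1b1* (66.9) and *Tpmt* (65.5) and the cytochrome *Cyp2d40* (59.8). Bile acid synthesis and transport had the lowest share of these metabolic lists, 2 of 26 (7.69%), at *Slc27a5* (65.5), which conjugates bile acids, and *Nr0b2* (59.4), which encodes the repressor SHP, against 14 with a triply bound peak. The nearest HDAC3 or PROX1 peak was centred 871 bp from the *Slc27a5* member and 275 bp from the *Nr0b2* member. In the lipid list the distances were 877 bp for *Fads2*, 8345 bp for *Plin4*, 793 bp for *Plin5* and 11171 bp for *Dhcr7*. Of the genes named in the metabolic lists, *Hadh*, *Eci1*, *Gckr*, *Sult1b1* and *Cyp2d40* also had a triply bound promoter peak.

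Genes of regulators held HNF4α-alone peaks in each of their 4 lists. Of 25 hepatocyte transcription factors, 7 (28.0%) had one, among them *Rxra* (61.3, at -301 bp), *Klf15* (56.1, at -53 bp) and *Gata4* (52.8, at -222 bp), and 6 a triply bound one. Of 48 nuclear receptors, 7 (14.6%) had one, led by *Nr1h3* (90.5, at -3 bp), the oxysterol receptor LXRα, with *Rxra* and *Nr0b2* also among them, against 9. Of 21 core clock genes, 5 (23.8%, 95% interval 10.6 to 45.1) had one, among them *Arntl* (43.3), *Nfil3* (38.2) and *Per3* (28.7, 42.5% covered), against 1 (4.76%) with a triply bound peak. Of the 7 NCoR-HDAC3 complex genes, *Ncor1* had one of score 22.1, nearer to the start of its neighbour *Pigl*, and *Ncor1* also had a triply bound promoter peak. *Gata4*, named above, had a triply bound promoter peak as well. The nearest HDAC3 or PROX1 peak was centred 974 bp from the *Rxra* member, 971 bp from that of *Klf15* and 662 bp from that of *Gata4*. For *Nr1h3*, *Arntl* and *Nfil3* the distances were 7279, 43847 and 596 bp.

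The CpG content of the same members is given by list as a description, beside the 35.4% of all members that were CpG-rich. In the mitochondrial ribosome, 4 of the 10 genes had a CpG-rich window at their highest-scoring member, among oxidative phosphorylation subunits 6 of 12 and among translation factors 6 of 10. Of the 3 plasma protein, 6 coagulation, 2 complement, 7 apolipoprotein, 2 bile acid and 5 glucose metabolism genes, 0 had one. It was 2 of 19 among cytochrome P450 and phase II enzymes, 2 of 12 in amino acid breakdown, 2 of 13 in lipid synthesis and 2 of 6 in fatty acid oxidation. In further housekeeping lists it was 3 of 5 cytosolic ribosomal proteins, 3 of 4 spliceosome genes, 4 of 8 secretory pathway genes, 1 of 3 peroxisome genes and 0 of 3 autophagy genes.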

How the data were processed

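The authors aligned ChIP-seq reads to mm9 with Bowtie 0.12.7, pooled the libraries of each factor and called peaks with HOMER above limits on enrichment and normalised reads, and filtered HNF4α peaks on the *Hnf4α* knockout. The deposited lists give positions and, for HNF4α, a score taken as the HOMER peak score, whose scale the list does not state, with no read depth. Peaks were placed on the mm9 (NCBIM37) genome and its annotation, with 51723 start sites of protein-coding transcripts, using Python 3.11.15, pandas 2.3.3, scipy 1.17.1 and pysam 0.24.0. A window of 200 bp on each peak centre was searched for 18 motifs on both strands and for CpG content. Shares were tested by Pearson's chi-square over peaks, Benjamini-Hochberg adjusted over 38 tests with a threshold of 0.05, by code tested on simulated data. Named genes are the nearest genes of the 10 highest-scoring members, the 3 peaks on either side of the 50% limit and at most 4 genes of each of 26 lists, by score, and single genes beyond these are marked. Sequences are shown for the highest-scoring of these, outside 1 chromosome. The members, lists and tests were chosen with earlier results of these data known. The overlap, start site distance, score range and mismatches were varied. A few genes that this rule names are not reported here.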

Additional observations from a re-analysis of the deposited data

How the results depend on the processing

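No paired analysis was possible because each list pools its libraries, and for the same reason no replicate could be left out. The number of members was 1395 when any overlap counted as bound, 1623 with a limit of 75%, 1203 when the neighbour had to be centred more than 1 kb away, 1043 and 1915 with start sites within 500 bp and 2 kb, and 1226 with gene 5′ ends. The CpG-rich difference against triply bound promoters kept its direction and passed the threshold in all 12 alternatives (25.4 to 42.9 points). The HNF4α consensus difference of 3.99 points passed it with any overlap (4.99, adjusted p = 0.022, Pearson's chi-square test here and below), a limit of 75% (5.21, adjusted p = 0.023), neighbours centred within 1 kb (5.71, adjusted p = 0.0085), start sites within 2 kb (6.48, adjusted p = 0.00022), scores at or below the median (16.6) and, added after seeing the data, CpG-poor windows (7.40, adjusted p = 0.0042). Within 250 bp, also added, it was -3.25. With scores above the median, 7 features passed against triply bound and 6 against distal peaks, where fewer peaks were tested. Genes by nearest start site alone made up 6.21%. The core CAAAGTCCA turned to -0.0199 with gene 5′ ends and -0.0985 within 250 bp. Against distal peaks, ZNF143 turned to 0.227 with scores above the median, and with windows of 100 bp the C/EBP element turned to -1.11 and the cAMP element to -0.0136, as did ZNF143 against triply bound peaks (0.0716). None of these was past the threshold in the comparison as reported, and the causes were not tested. The C/EBP difference against triply bound peaks lost the threshold with exact matches (-0.507) and with scores above the median (-3.60, adjusted p = 0.099). Of the 12 features past it in that comparison, 4 (AGGTCA, the forkhead element, the GC box and CpG-rich windows) stayed past it in every alternative and 8 lost it in at least 1. GTTAATNAT lost it in 5 of 13 settings, CAAAGTTCA in 4, NRF1 in 3, TAGGTCA and TATAAA in 2 each, and ETS and CCAAT in 1 each. Against distal peaks, 8 of 14 features lost it in at least 1.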
